A study of Mus musculus with 2 samples.

Results

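The genes described here encode subunits of the 5 complexes of oxidative phosphorylation, measured in cultured rib chondrocytes that lack the microRNA miR-140 and in wild-type cultures. Members were chosen by gene symbol, though with earlier results of these data known. They are the genes whose symbols start with Ndufa, Ndufb, Ndufc, Ndufs or Ndufv (complex I, without the Ndufaf assembly factors), Sdha to Sdhd (complex II), Uqcr (complex III), Cox4 to Cox8 (complex IV) or Atp5 (complex V). Single-symbol probe sets covered 18193 genes, of which 86 fit this rule, and 81 of them reached a log2 signal of 7, the floor used here for comparison, in at least 1 array. The 81 are 35 genes of complex I, 8 of complex II, 8 of complex III, 13 of complex IV and 17 of complex V. Because the rule goes by symbol, it also takes in the assembly factors Sdhaf1 to Sdhaf4 and the supercomplex factor Cox7a2l, and it places Ndufa4 and Ndufa4l2 in complex I, although Ndufa4 is now counted as a subunit of cytochrome c oxidase.

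The miR-140 knockout group (KO below) and the wild-type group (WT below) each had 1 microarray, made from total RNA of cultured chondrocytes of mice aged 5 days. Both carry one strain label, with C57BL/6 and CBA in it. The study sought candidate targets of the microRNA, and for this pathway its arrays ask whether the transcripts of respiratory chain subunits stood apart between the cultures. As each group is a single array, nothing can be tested between them, and each difference below (KO minus WT, in log2 signal) describes this pair of arrays only. The labels used here state neither the number of mice or cultures behind each RNA sample nor their sex.

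Oxidative phosphorylation takes place in the inner mitochondrial membrane. Complexes I and II pass electrons from NADH and succinate to ubiquinone, complex III passes them on to cytochrome c, and complex IV hands them to oxygen, while complexes I, III and IV pump protons. Complex V, the ATP synthase, uses the proton gradient to make ATP. Nearly all subunits are encoded in the nucleus, a small core is encoded by mitochondrial DNA, and cartilage, which has no blood vessels, is known for relying largely on glycolysis.

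The deleted gene, Mir140, lies inside the gene Wwp2. Of its mature strands, miR-140-3p is printed with its seed, the bases from 2 to 8 that pair with target messenger RNAs, in capitals (RefSeq, GRCm38.p6, chr8:107551288-107551308, plus strand), since its absence defines the KO group.
miR-140-3p: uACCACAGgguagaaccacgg
No transcript sequences of the members were used here, so seed matches in them were not searched.

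The microRNA itself was not read by the probe sets used here, and its host gene Wwp2 read 7.13 in KO and 9.65 in WT. In KO all 7 chondrocyte markers above the floor had lower signal (median difference -2.00, summed linear signal over the 8 markers 12910 in KO and 51661 in WT), with Acan, the aggrecan core protein, at 7.99 in KO and 12.02 in WT, the link protein Hapln1 at 7.74 in KO and 10.19 in WT, and Col2a1, the main cartilage collagen, at 11.98 in KO and 13.98 in WT. Matn1, also a chondrocyte marker, was under the floor in both arrays. Of 7 fibroblast markers, 6 had higher signal in KO (median 0.28, with Col3a1 at 1.38 and Lum at 0.96, summed signal 32301 in KO and 24832 in WT). Xist, which coats the inactive X, had a signal of 10.60 in KO and 7.01 in WT, and the Y-linked Eif2s3y one of 4.18 in KO and 8.86 in WT. These sex-linked transcripts differ together with genotype, so differences by sex and by genotype cannot be told apart in this pair of arrays. Of 5 brown adipocyte and adipocyte markers, 2 were above the floor and both had higher signal in KO (Lpl by 1.11 and Fabp4 by 0.51). Of the 3 under the floor, Cidea (-0.80) and Ucp1 (-0.29) had lower signal in KO and Adipoq (0.27) had higher signal. All 5 summed to 5228 in KO and 3535 in WT. The 5 macrophage markers, with Adgre1 at -0.19 and Cd68 at 0.01, summed to 542 in KO and 577 in WT. In RNA from whole cultures, fewer cells of a type and less RNA per cell cannot be told apart, and the part of these differences in the values below was not tested.

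Transcripts of oxidative phosphorylation were nearly level between the arrays, with a small lean to higher signal in KO. Of the 81 members, 53 (65.4%) had higher signal in KO, where 40.0% of all 9897 genes above the floor did, and 28 (34.6%) had lower signal, where 59.2% of all genes did. The median difference was 0.04 over the members and -0.05 over all genes. Differences under 0.1 in size were found for 48 members (59.3%) and for 37.9% of all genes. Higher signal by at least 1.2-fold was found for 2 members (8.20% of all genes), Atp5e and Cox6b2, and lower signal by at least 1.2-fold for 4 (15.7% of all genes), Cox6a2, Uqcrc2, Ndufa4l2 and Cox4i2. At 1.5-fold the counts were 0 higher (1.56% of all genes) and 1 lower (3.56% of all genes), and no member reached 2-fold in either direction (0.475% of all genes higher and 1.22% lower).

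Member probe sets were bright, though signal also depends on the probe set and not on RNA level alone, with a median log2 signal of 10.95 in KO and 10.92 in WT, against 8.59 in KO and 8.64 in WT over all genes above the floor. Among genes with a mean signal of at least 10, 46 of 68 members had higher signal in KO, where 40.1% of all 1870 such genes did. When differences were centred on the median of all genes, 62 of the 81 members (76.5%) stood higher in KO, where 4948 of all 9897 genes do by construction. The count thus depends on where 0 is set. The 9 members that lay just below 0, between -0.04 and -0.02, turned sign under at least 1 scaling: Ndufa10, Ndufb3, Ndufb11, Sdhaf3, Sdhaf4, Uqcrb, Uqcrq, Atp5g3 and Atp5md.

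**Figure D1:**
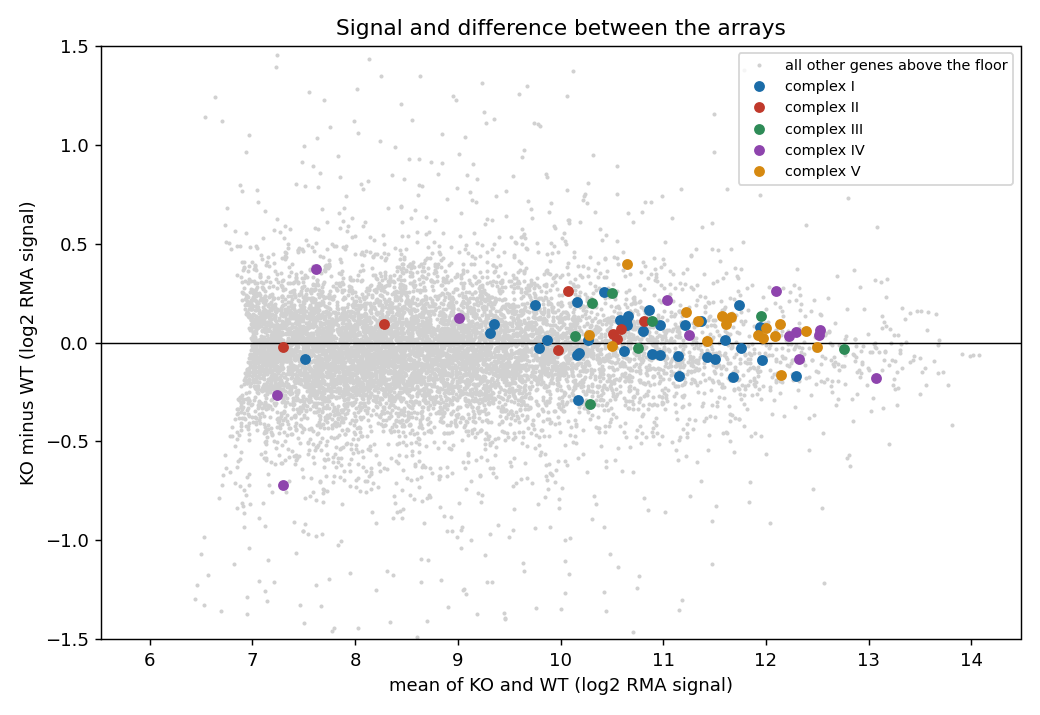
Difference between the arrays (KO minus WT, log2 RMA signal) against the mean of both arrays (log2 RMA signal), with 1 point per gene above the floor, members coloured by complex and all other genes in grey. The members cluster near 0 at high signal, with the dimmer Cox6a2 at -0.72 lowest, and 65 other genes lie beyond the plotted range of 1.5 in either direction.

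Sequence around the start sites gives a feature that the rule did not use. Many nuclear genes of the respiratory chain are known to carry sites for nuclear respiratory factor 1 (NRF1), for ETS factors such as GABP, and for YY1. Windows of 250 bases before to 50 bases after the start site (RefSeq, GRCm38.p6) were at hand for 66 of the 81 members, 71 windows in all. They were searched on both strands for the NRF1 palindrome (GCGCA, then any base, then GCGC), the ETS core (CCGGAAG) and the YY1 core (AAGATGGC). The NRF1 letters were in 23.9% of member windows, 10.1% of the 10344 windows of all genes above the floor and 4.60% of all 32851 windows. For the ETS letters the shares were 28.2%, 17.6% and 8.86%, and for the YY1 letters 12.7%, 4.61% and 2.75%. At least 1 of the 3 stood in 56.3% of member windows and 28.7% of windows of all genes above the floor, although median GC content was 59.0% in member windows and 61.3% in the wider set. Matches of different motifs overlapped in 0 member windows.

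With and without these letters, most members had higher signal in KO, where 40.0% of all genes above the floor did. The share among all genes with the same letters was not counted, and a link between letters and direction was not tested. Of 16 members with the NRF1 letters, 12 had higher signal in KO (median difference 0.10), and of 50 without them, 33 had (median 0.04). For the ETS letters the counts were 15 of 20 (median 0.06) and 30 of 46 (median 0.04), and for the YY1 letters 7 of 9 (median 0.02) and 38 of 57 (median 0.06). A match describes these windows and shows no binding. The 6 windows below were chosen, with values known, to show each motif and every complex, with Ndufa8, Uqcrc1 and Atp5e among the members farthest above 0 in their complexes and Cox6a1 below 0. Capitals mark motif matches on either strand, and the strand given is that of the gene.
Ndufa8 (chr2:36049289-36049588, minus strand): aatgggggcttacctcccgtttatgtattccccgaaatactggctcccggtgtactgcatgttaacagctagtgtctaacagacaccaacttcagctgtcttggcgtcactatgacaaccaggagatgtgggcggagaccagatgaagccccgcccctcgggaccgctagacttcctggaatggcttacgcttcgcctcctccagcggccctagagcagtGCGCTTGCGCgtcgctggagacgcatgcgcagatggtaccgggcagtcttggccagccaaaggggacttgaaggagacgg
Ndufb8 (chr19:44555393-44555692, minus strand): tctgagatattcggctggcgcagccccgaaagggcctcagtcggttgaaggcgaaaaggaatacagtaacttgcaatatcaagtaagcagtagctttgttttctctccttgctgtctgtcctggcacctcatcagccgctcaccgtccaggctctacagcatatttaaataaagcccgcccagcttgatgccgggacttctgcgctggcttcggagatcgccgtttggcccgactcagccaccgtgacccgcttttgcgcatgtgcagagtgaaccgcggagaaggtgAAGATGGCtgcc
Sdhd (chr9:50603800-50604099, minus strand): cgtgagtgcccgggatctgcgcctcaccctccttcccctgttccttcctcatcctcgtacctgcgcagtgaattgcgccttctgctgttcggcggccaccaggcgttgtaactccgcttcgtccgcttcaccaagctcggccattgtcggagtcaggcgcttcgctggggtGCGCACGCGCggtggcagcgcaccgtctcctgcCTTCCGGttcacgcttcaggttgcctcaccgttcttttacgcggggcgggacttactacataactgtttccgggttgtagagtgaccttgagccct
Uqcrc1 (chr9:108936398-108936697, plus strand): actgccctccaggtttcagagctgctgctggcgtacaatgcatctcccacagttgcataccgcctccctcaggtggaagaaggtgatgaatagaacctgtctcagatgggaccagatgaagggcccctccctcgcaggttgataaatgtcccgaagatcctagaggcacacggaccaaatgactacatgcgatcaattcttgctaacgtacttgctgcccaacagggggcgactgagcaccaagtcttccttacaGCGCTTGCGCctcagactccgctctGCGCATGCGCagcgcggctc
Cox6a1 (chr5:115348909-115349208, minus strand): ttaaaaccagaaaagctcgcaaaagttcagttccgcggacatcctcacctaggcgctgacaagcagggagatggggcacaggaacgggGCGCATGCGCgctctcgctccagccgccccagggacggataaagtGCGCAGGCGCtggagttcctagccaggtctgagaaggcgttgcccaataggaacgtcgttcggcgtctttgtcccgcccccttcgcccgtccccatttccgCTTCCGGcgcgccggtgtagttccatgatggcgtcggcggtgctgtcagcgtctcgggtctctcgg
Atp5e (chr2:174464052-174464351, minus strand): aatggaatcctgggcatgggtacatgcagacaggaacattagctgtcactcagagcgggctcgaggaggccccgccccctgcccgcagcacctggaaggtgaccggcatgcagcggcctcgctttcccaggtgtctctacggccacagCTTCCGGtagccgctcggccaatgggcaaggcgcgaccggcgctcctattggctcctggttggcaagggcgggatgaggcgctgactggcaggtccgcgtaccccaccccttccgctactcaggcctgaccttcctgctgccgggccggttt

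Complex I, NADH dehydrogenase, had members on both sides of 0. Of 35 members above the floor, 19 had higher and 16 lower signal in KO, with a median of 0.01 and quartiles of -0.07 and 0.10. Of all genes above the floor, 40.0% had higher and 59.2% lower signal, and centring on all genes moved the complex I median to 0.06. The same shares stand beside the counts for subgroups, other complexes and other lists below. The core subunits, most of which carry the flavin and iron-sulphur clusters, leaned to higher signal: 5 of 6 measured, with a median of 0.08. The other 29 members had 14 higher and a median of -0.03, which turned to 0.02 when differences were centred on all genes. The difference between these groups of subunits is smaller than the spread within complex I and was not tested.

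Ndufv1, the subunit that binds NADH and flavin, read 10.73 in KO and 10.59 in WT, a difference of 0.13. Its partner Ndufv2, an iron-sulphur protein, read 10.84 in KO and 10.78 in WT. Ndufs1, the largest iron-sulphur subunit, read 9.40 in KO and 9.30 in WT. These subunits of the NADH-oxidising tip all stood slightly higher in KO. Toward the ubiquinone site, the iron-sulphur subunits Ndufs8 (11.43 in KO and 11.32 in WT) and Ndufs7 (9.87 in KO and 9.86 in WT) differed by 0.11 and 0.01. Ndufs3, a core subunit without a cluster, went the other way, at 10.13 in KO and 10.19 in WT.

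Among accessory subunits, Ndufa8, on the intermembrane-space side, was farthest above 0. It read 10.55 in KO and 10.29 in WT, a 1.19-fold difference that stays under 1.2-fold. Ndufs5, on the same side, read 10.26 in KO and 10.06 in WT, Ndufa6 read 9.85 in KO and 9.66 in WT, and Ndufa7 read 11.83 in KO and 11.64 in WT. Ndufa7 had 5 probe sets above the floor, and all of them stood higher in KO (0.13 to 0.29). Ndufb5 read 10.95 in KO and 10.78 in WT, but another probe set of the gene gave -0.11.

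Lower signal in KO was farthest for Ndufa4l2, a paralogue of Ndufa4 that is known to be induced by hypoxia. It read 10.02 in KO and 10.31 in WT, a 1.22-fold lower signal. Ndufa4 itself differed by less, at 10.86 in KO and 10.92 in WT. Ndufc2, a membrane-arm subunit, followed at 11.59 in KO and 11.77 in WT, with Ndufa12 at 11.06 in KO and 11.23 in WT and the X-linked Ndufa1 at 12.21 in KO and 12.37 in WT. Each of the 3 differed by -0.17. All 3 Ndufa12 probe sets above the floor were lower (-0.19 to -0.17), whereas those of Ndufc2 ran from -0.17 to 0.06. Ndufa13, also called GRIM-19, read 11.914 in KO and 12.002 in WT.

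The remaining complex I members were close to 0, and for many the sign went with the probe set. Here and below, ranges and signs over a gene's probe sets cover those above the floor, unless another is named. Ndufs4, an accessory subunit whose loss causes Leigh syndrome in humans, read 9.34 in KO and 9.29 in WT, with its 2 probe sets above the floor at 0.05 and -0.25, and a probe set under the floor at 0.27. Ndufab1, the mitochondrial acyl carrier protein, read 11.39 in KO and 11.46 in WT, with its 2 probe sets above the floor at -0.07 and 0.39, and a probe set under the floor at -0.57. Ndufb9 read 11.11 in KO and 11.18 in WT (-0.07 to 0.21 over its probe sets). The signs also differed between probe sets for Ndufb6, at 11.46 in KO and 11.54 in WT, for the X-linked Ndufb11, at 11.74 in KO and 11.77 in WT, and for Ndufs8 (-0.02 to 0.20). None of these genes has a direction that all its probe sets above the floor share.

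Members with higher signal in KO that have no probe set of the other sign above the floor were Ndufb2 at 10.64 in KO and 10.52 in WT, Ndufb8 at 10.70 in KO and 10.59 in WT, Ndufa2 at 11.26 in KO and 11.17 in WT, Ndufb7 at 11.01 in KO and 10.92 in WT, Ndufa9 at 10.69 in KO and 10.60 in WT and Ndufa3 at 11.98 in KO and 11.90 in WT. Their differences lay between 0.08 and 0.11, and for Ndufb2, Ndufb8 and Ndufa3 a probe set under the floor had the other sign (-0.02, -0.15 and -0.06). Ndufa5, at 10.28 in KO and 10.26 in WT, and Ndufv3, at 11.61 in KO and 11.60 in WT, differed by 0.01. On the lower side, with differences from -0.08 to -0.03, were Ndufb1 at 7.47 in KO and 7.55 in WT, Ndufc1 at 10.935 in KO and 10.999 in WT, Ndufb10 at 10.15 in KO and 10.21 in WT, Ndufa10 at 10.59 in KO and 10.64 in WT and Ndufb3 at 9.78 in KO and 9.80 in WT. As a family, the Ndufb subunits of the membrane arm had 4 of 10 higher, the same share as the 40.0% of all genes. Their median was -0.03, which turned to 0.02 with centring on all genes. Ndufb4 was under the floor in both arrays (5.62 in KO and 5.5 in WT).

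**Figure D2:**
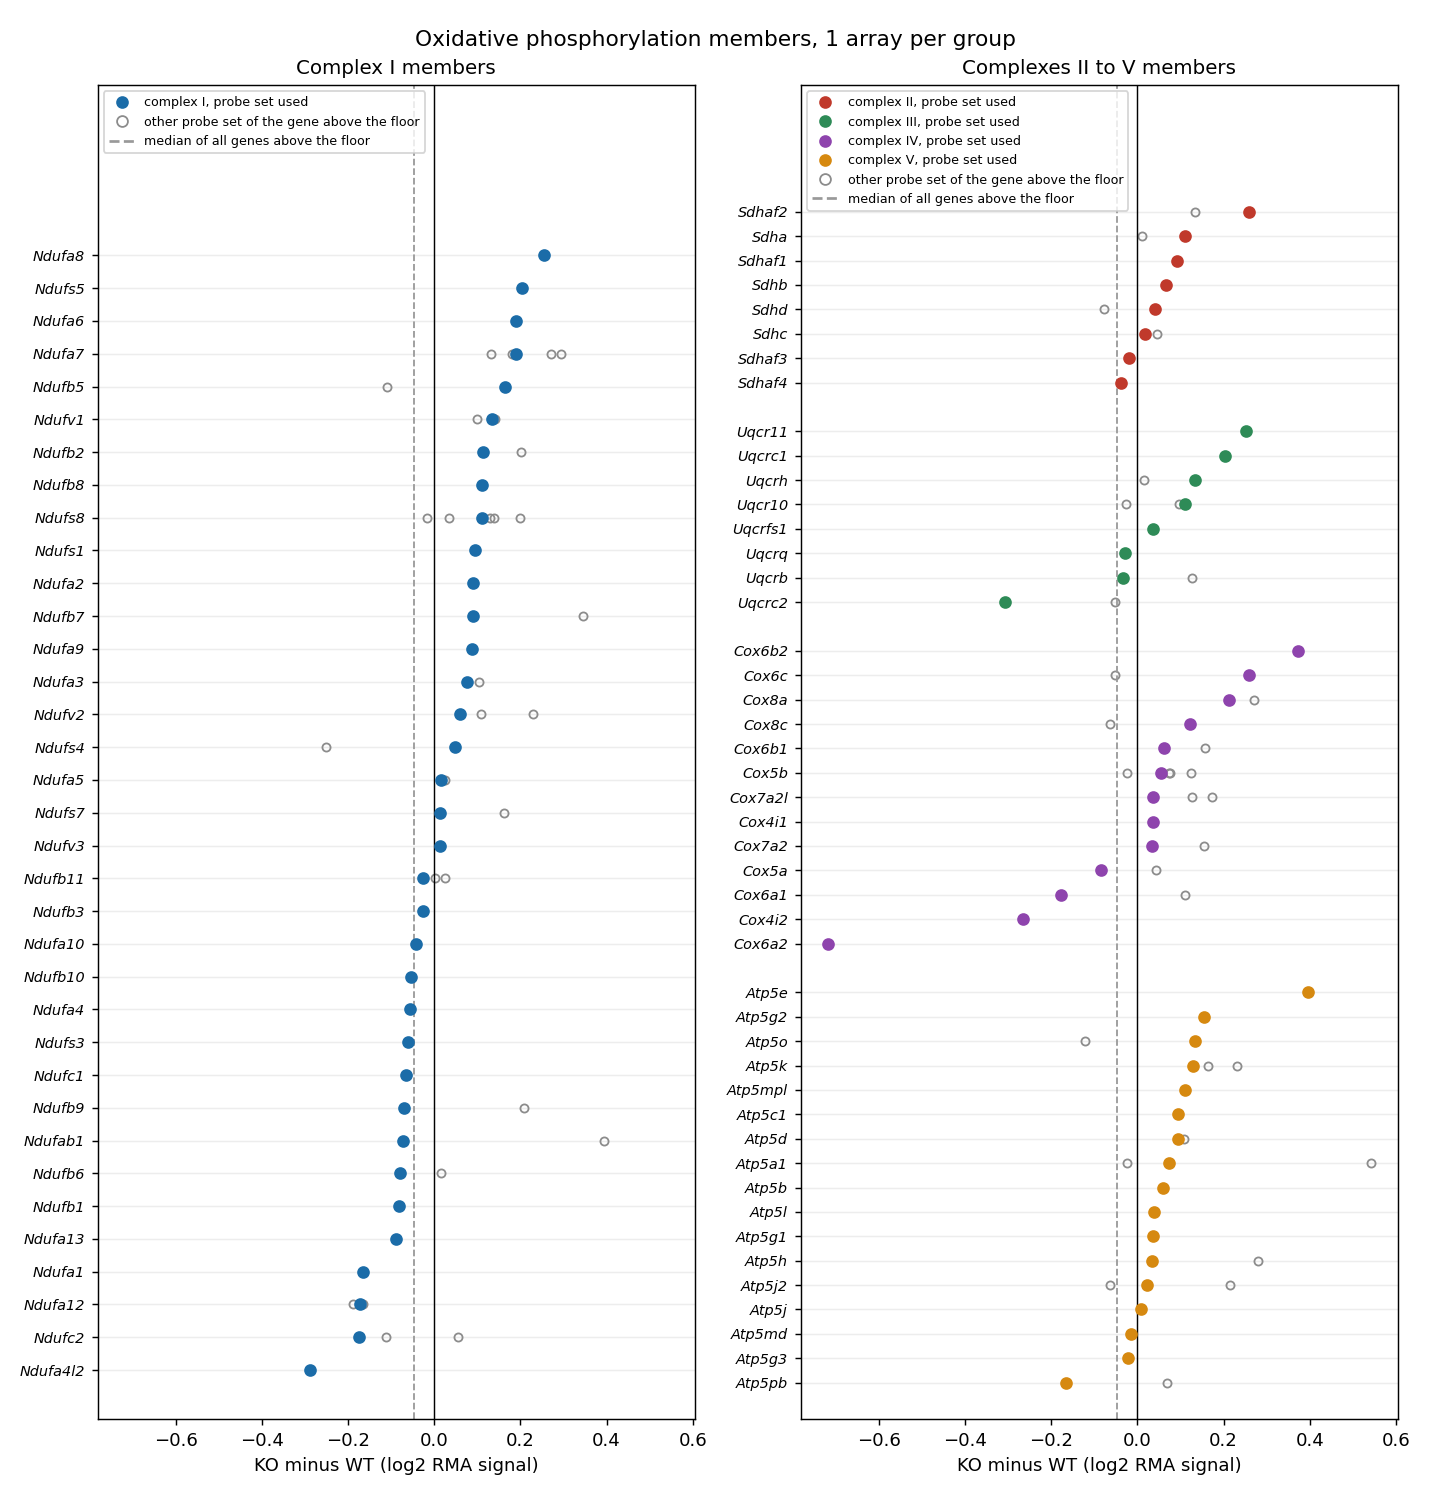
Difference between the arrays (KO minus WT, log2 RMA signal) for each of the 81 members above the floor, grouped by complex and ordered by the difference. Filled points are the probe set used for the gene, open points its other probe sets above the floor, and the dashed line is the median of all genes (-0.05). Most filled points lie within 0.1 of 0, and open points often lie as far from the filled point as that point lies from 0.

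Complex II, succinate dehydrogenase, has 4 subunits, and all of them read a little higher in KO. Sdha, the flavoprotein that oxidises succinate, read 10.86 in KO and 10.75 in WT. Sdhb, the iron-sulphur subunit, read 10.62 in KO and 10.55 in WT. The membrane anchors were closer still, with Sdhc at 10.56 in KO and 10.54 in WT and Sdhd at 10.53 in KO and 10.49 in WT. A dimmer Sdhd probe set gave -0.08, so the sign for that gene depends on the probe set. The median of the 4 subunits was 0.05, and that of the 4 assembly factors 0.04. Sdhaf2, which is needed to attach the flavin to Sdha, was highest at 10.20 in KO and 9.94 in WT. Sdhaf1, which serves the iron-sulphur subunit, read 8.33 in KO and 8.24 in WT. Sdhaf3, at 7.29 in KO and 7.31 in WT, and Sdhaf4, at 9.95 in KO and 9.99 in WT, stood within 0.04 of 0 on the lower side.

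Complex III, the cytochrome bc1 complex, held opposite differences in its paired core proteins. Uqcrc1 read 10.41 in KO and 10.20 in WT, whereas Uqcrc2 read 10.13 in KO and 10.44 in WT. The Uqcrc2 difference of -0.31 (1.24-fold lower) came from the brighter of 2 probe sets, and the other gave -0.05. The Rieske iron-sulphur protein Uqcrfs1, which takes the first electron from ubiquinol, read 10.16 in KO and 10.12 in WT. Of the 5 small subunits, Uqcr11 was highest, at 10.62 in KO and 10.37 in WT, and Uqcr10 read 10.95 in KO and 10.84 in WT, with probe sets from -0.03 to 0.11. Uqcrh, the hinge protein, read 12.01 in KO and 11.88 in WT, the third of the small subunits above 0. Uqcrq, at 10.74 in KO and 10.77 in WT, and Uqcrb, at 12.75 in KO and 12.78 in WT, turned sign with scaling, and a second Uqcrb probe set gave 0.13. In all, 5 of 8 members had higher signal in KO and the median was 0.07.

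Complex IV, cytochrome c oxidase, had 9 of 13 members higher in KO and a median of 0.04. Its 8 widely expressed nuclear subunits above the floor differed by -0.18 to 0.26, and 5 of them by less than 0.1 (37.9% of all genes). Cox4i1, the usual form of subunit 4, read 12.54 in KO and 12.50 in WT. Cox5b read 12.32 in KO and 12.27 in WT, Cox6b1 12.56 in KO and 12.50 in WT, and Cox7a2 12.24 in KO and 12.21 in WT. Cox5a, at 12.28 in KO and 12.37 in WT, and Cox6a1, at 12.98 in KO and 13.16 in WT, were lower, but each had a probe set of the other sign (0.04 and 0.11). Cox6c (12.23 in KO and 11.97 in WT) and Cox8a (11.14 in KO and 10.93 in WT) stood higher in KO. The Cox8a probe sets above the floor gave 0.21 and 0.27, whereas a second Cox6c probe set of similar brightness gave -0.05. Cox7a2l read 11.27 in KO and 11.23 in WT, and a second probe set of Cox5b gave -0.02.

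Isoforms known from muscle, lung or testis included the widest differences of complex IV, and most of them were dim. Cox6a2, the heart and skeletal muscle form of subunit 6a, read 6.94 in KO and 7.66 in WT. Its difference of -0.72 (1.65-fold lower) was the 1 member difference past 1.5-fold. Its KO signal lies below 7, and the difference is -0.66 when that signal is set to 7. A second Cox6a2 probe set, under the floor in both arrays, read 5.19 in KO and 5.69 in WT. Of 9 skeletal muscle markers only Des reached the floor (7.38 in KO and 7.25 in WT), while Ckm, Acta1, Actn2 and Mb were under it in both arrays, and the summed linear signal of the 9 was 516 in KO and 511 in WT.

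Cox4i2, the lung form of subunit 4 that hypoxia is known to induce, read 7.11 in KO and 7.38 in WT. Cox6b2, known from testis, read 7.80 in KO and 7.43 in WT, the highest difference of the complex (0.37). Cox8c, also known from testis, read 9.07 in KO and 8.95 in WT, with a second probe set at -0.06. The muscle forms Cox7a1 (6.23 in KO and 6.04 in WT) and Cox8b (6.05 in KO and 6.33 in WT) and the testis form Cox7b2 (4.25 in KO and 4.06 in WT) were under the floor in both arrays. So were the single-symbol probe sets of Cox7c (6.17 in KO and 5.90 in WT), a widely expressed subunit. With Ndufa4l2 counted among them, the 5 tissue or hypoxia isoforms above the floor had a median of -0.26, with 3 lower and 2 higher.

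Complex V, the ATP synthase, leaned to higher signal: 14 of 17 members stood higher in KO, with a median of 0.06. All 5 subunits of the catalytic F1 head stood higher, although the probe sets of Atp5a1 ran from -0.02 to 0.54. The 0.54 came from a dim probe set (7.23 in KO and 6.69 in WT), under the floor in WT. The alpha and beta subunits, which hold the nucleotides, read 12.03 in KO and 11.96 in WT (Atp5a1) and 12.42 in KO and 12.36 in WT (Atp5b). In the rotating stalk, Atp5c1 (gamma) read 11.66 in KO and 11.56 in WT and Atp5d (delta) 12.19 in KO and 12.09 in WT, a difference of 0.09 for each. Atp5e (epsilon), at 10.85 in KO and 10.45 in WT (1.32-fold higher), was the member farthest above 0 in the whole pathway. It is read by a single probe set, so there is no second reading of the gene, and that probe set is of a kind designed to match more than 1 transcript.

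The c ring of the membrane part is encoded by 3 genes that yield the same mature protein. Atp5g2 read 11.30 in KO and 11.15 in WT, Atp5g1 10.30 in KO and 10.26 in WT, and Atp5g3 12.48 in KO and 12.50 in WT. Only the Atp5g2 difference (0.15) exceeded 0.1. In the peripheral stalk, Atp5o, the oligomycin sensitivity protein, read 11.639 in KO and 11.505 in WT, with another probe set at -0.12. Atp5h read 12.10 in KO and 12.07 in WT (another probe set at 0.28), and Atp5j read 11.43 in KO and 11.42 in WT. Subunit b, Atp5pb, was the lowest member of the complex, at 12.06 in KO and 12.22 in WT, but its second probe set gave 0.07. Of the stalk, subunit b alone had lower signal from its brightest probe set. The small membrane subunits completed the set, with Atp5k at 11.73 in KO and 11.60 in WT, Atp5mpl at 11.39 in KO and 11.28 in WT and Atp5l at 11.94 in KO and 11.90 in WT. Atp5j2 read 11.99 in KO and 11.96 in WT, with probe sets from -0.06 to 0.21, and Atp5md read 10.49 in KO and 10.51 in WT. All 3 Atp5k probe sets above the floor had higher signal in KO, from 0.13 to 0.23.

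Probe sets of a gene were read from the same RNA samples on the same arrays, so their disagreement can be set beside the differences. Some of them can match more than 1 transcript, so they need not read the same transcripts. Of the 42 members with more than 1 probe set above the floor, 20 had probe sets that differed in sign. How many of all genes did so was not counted. The pooled SD of the difference over probe sets of a gene was 0.12, and the SD of the difference between the 81 members was 0.16. Differences of 0.1 or less, which most members have, are thus smaller than this disagreement between probe sets of a gene. In 27 of the 42 members (64.3%) the next brightest probe set gave a higher difference than the brightest, as it did in 60.4% of 3838 genes of the whole array. The widest gap was in Ndufab1, with -0.07 from the brightest and 0.39 from the next.

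**Figure D3:**
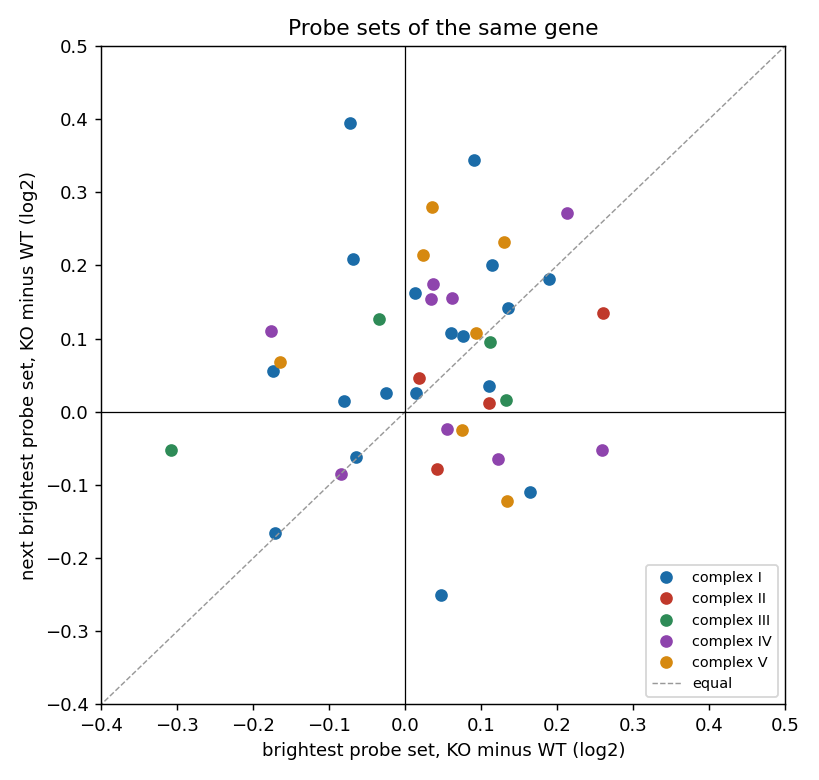
Difference between the arrays (KO minus WT, log2) in the next brightest probe set against the brightest probe set, for the 42 members with more than 1 probe set above the floor, coloured by complex. Points spread widely around the dashed line of equality, and those in the upper left and lower right differ in sign between probe sets.

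Of the subunits encoded in mitochondrial DNA, 1 was listed under a single symbol. ND5, a proton-pumping subunit of complex I, read 12.52 in KO and 12.36 in WT. Cyc1, the cytochrome c1 of complex III that the rule does not take in, differed by 0.06, and the electron carrier Cycs by -0.11, with another probe set at 0.26.

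Other mitochondrial genes were compared by the same steps. The mitochondrial ribosome, which translates the mitochondrially encoded subunits, had 57 of 75 genes higher in KO and a median of 0.07. Mrpl54 and Mrpl50 were farthest at 0.40 and 0.39, and another Mrpl50 probe set gave -0.22. Enzymes of the tricarboxylic acid cycle and pyruvate dehydrogenase had 9 of 16 higher (median 0.02), with Ogdh at -0.22 and Dlat at 0.20. Import factors had 10 of 17 higher (median 0.02), with Timm9 at 0.39, whose wild-type signal of 6.82 lies under the floor, and Timm13 at 0.33. Each of these medians lay above the -0.05 of all genes.

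Assembly and coenzyme Q genes lay near all genes, of which 40.0% had higher signal in KO and the median was -0.05. Complex I assembly factors had 5 of 12 higher (median -0.08), with Tmem186 at 0.30 and Timmdc1 at -0.30. Those of complexes III, IV and V had 11 of 24 higher (median -0.06, close to that of all genes), with Lrpprc, a regulator of mitochondrial messenger RNA, at -0.37 and Cox10, which makes the haem of cytochrome oxidase, at -0.33. Coenzyme Q synthesis had 4 of 9 higher (median -0.10), with Coq5 at -0.38 and Pdss2 at -0.35. Regulators of mitochondrial biogenesis had 1 of 9 higher, Esrra, and a median of -0.16 (2 of 9 higher with centring on all genes). Yy1 read 10.49 in KO and 10.78 in WT, and Tfam, which packages and transcribes mitochondrial DNA, read 8.59 in KO and 8.86 in WT. Probe sets differed in sign for Yy1, Nrf1, Gabpa and Polrmt, and the coactivators Ppargc1a and Ppargc1b were under the floor in both arrays.

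Mitochondrial genes linked to hypoxia had 5 of 6 lower in KO, where 59.2% of all genes were lower, a list that holds the members Cox4i2 and Ndufa4l2. Lonp1, a matrix protease, read 8.71 in KO and 9.45 in WT (1.67-fold lower), and Higd1a read 12.23 in KO and 12.61 in WT. Bnip3, a mitophagy receptor, stood at -0.20 and Pdk1, which restrains pyruvate dehydrogenase, at 0.10, with another probe set at -0.38. The same arrays differ widely in cartilage markers, and the part of that difference in these values was not tested.

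**Figure D4:**
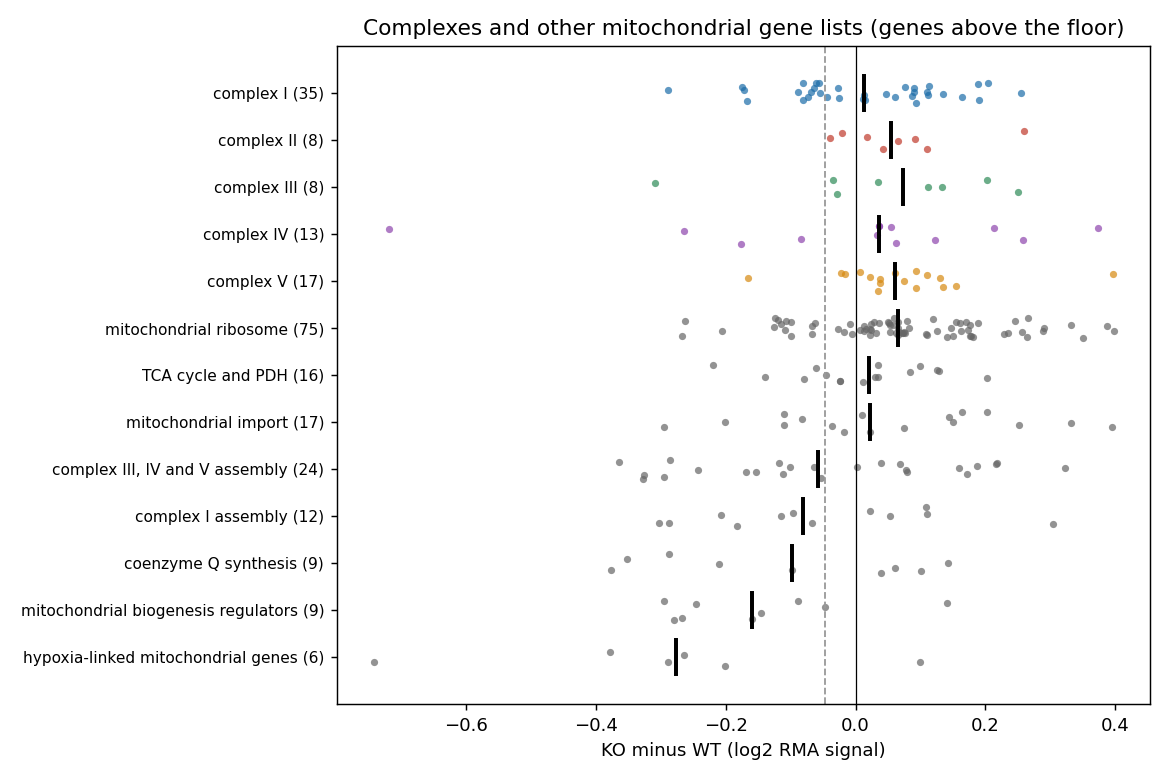
Difference between the arrays (KO minus WT, log2 RMA signal) for genes above the floor in the 5 complexes and 8 other mitochondrial gene lists, with 1 point per gene, black bars for medians, the number of genes in brackets and a dashed line at the median of all genes (-0.05). Medians of the complexes lie between 0.01 and 0.07, and the lowest list medians are those of biogenesis regulators (-0.16) and hypoxia-linked genes (-0.28).

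The 2 X-linked members above the floor, Ndufa1 (-0.17) and Ndufb11 (-0.03), both had lower signal in KO, as did 59.2% of all genes. Ndufb11 has no settled sign: its probe sets ran from -0.03 to 0.03, and it turned to 0.02 with centring on all genes. Xist was higher in KO, and a link with these members was not tested. Without the X-linked members, 53 of 79 members (67.1%) had higher signal. The 3 members on chromosome 8, which carries Mir140, were Ndufb7 (0.09), Cox4i1 (0.04) and Ndufa13 (-0.09).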

How the data were processed

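Messenger RNA was measured on Affymetrix Mouse Genome arrays, 1 array for each of 2 groups taken from the sample titles. The deposited values are log2 signals from Robust Multichip Average (RMA), a method of background correction, normalization between arrays and summary per probe set; the submitters' processing notes name RMA and Affymetrix Expression Console 1.1. The log2 scale was read from the values (3.24 to 14.2). RMA removes differences shared by most genes and compresses those of dim probe sets. The number of arrays limits the precision.

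Of 45101 probe sets, 34945 had a single symbol in the platform annotation, 932 had several (10 of them with a member prefix, not used) and 64 were controls. Each gene was read from its brightest probe set (by the mean of KO and WT), and genes with a log2 signal of at least 7 in either array were compared. All 86 members were found by Entrez identifier in the RefSeq gene table, with no change of symbol. Any member could be named, and from every other list the 2 genes farthest from 0. Col2a1, Matn1, Ckm, Acta1, Actn2, Mb, Esrra, Nrf1, Gabpa, Polrmt, Ppargc1a, Ppargc1b, Bnip3, Pdk1, Cidea, Ucp1 and Adipoq were added after their values were seen. The members and lists were chosen with earlier results of these data known. Counts and medians were tested on simulated data. Python 3.11.15, pandas 2.3.3 and statsmodels 0.14.6 were used. Alternatives were other floors, centring, further normalization, other choices of probe set and other assignments of members.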

Additional observations from a re-analysis of the deposited data

How the results depend on the processing

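No paired analysis was possible because each group has 1 array. The median over the members stayed above 0 in all 14 other settings (0.04 to 0.09), and so did the medians of complex I (0.01 to 0.06), II (0.05 to 0.10), III (0.04 to 0.12), IV (0.03 to 0.14) and V (0.05 to 0.12) in theirs. Centring on all genes or on bright genes subtracts a median of -0.05 in each case, so it could only raise these medians. Lowess centring, which subtracts the trend of all genes, also raised each of them (0.09 over the members). Raising values under 7 to 7 changed Cox6a2 alone and left every median as it was. All settings use the same 2 arrays, so they do not repeat the comparison. The number of members higher in the knockout array was 50 to 62 in 10 settings (65.4% to 76.5% of the members compared). It was 45 of 59 with probe sets of 1 transcript only, 42 of 61 without members whose probe sets differ in sign, and 30 of 42 with the next brightest probe set, the last 2 added, like centring on bright genes, after seeing the data. Fewer members enter these 3. The 1 member past 1.5-fold, Cox6a2, was no longer counted with a floor of 8 (0 members). It was not counted with the mean of all probe sets either (0): its dimmer probe set then takes the gene under the floor, though the mean difference of -0.61 is still past 1.5-fold. In all, 6 members passed 1.2-fold. Of all genes, 168 passed 2-fold and 506 passed 1.5-fold. Signal near the floor limits what can be read for the tissue isoforms.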
